A study of Mus musculus with 12 samples.

Results

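The histone genes of the mouse were examined in the anterior prostate of APT121 and wild type males. Genes were taken by symbol, as every H1, H2A, H2B, H3, H4 or macroH2A gene measured by a probe set (transcript cluster) that the array annotation ties to 1 gene. This gave 40 genes of the 19935 tested, of which 30 are clustered histone genes, which lie in the histone gene clusters or carry their names, and 10 are variant histone genes that lie elsewhere. The choice used names and no measured value, although earlier results of these data were known when it was made.

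The APT121 arrays came from mice carrying T121, which is a piece of the SV40 large T antigen able to inactivate the pRb family. The probasin promoter drives it in prostate epithelium, and the tissue was studied for lesions of prostatic intraepithelial neoplasia (PIN). The wild type arrays came from mice of the same F3 generation, with a background mixed from C57BL/6J and DBA/2. All mice were males that ate the AIN93G diet from 3 weeks and were killed at 12 weeks of age. Each array held equal RNA of 2 mice, so 4 APT121 arrays stood for 8 mice and 8 wild type arrays for 16 mice, and the tests see the variation among pools of mice.

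Histones package DNA. The clustered genes are replication dependent: their transcripts are made mainly in S phase and most end in a stem-loop, bound by the protein SLBP, in place of a poly(A) tail. Most variant genes give polyadenylated transcripts and are less tied to S phase, although H2ax also gives a stem-loop transcript. They encode special forms such as H2A.Z, H2A.X, macroH2A and H3.3. A few genes of either class are known mainly from testis or oocytes.

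Values are log2 intensities, and a difference is APT121 minus wild type on that scale ± SE, with the adjusted p of limma over all 19935 genes; a gene was called at an adjusted p under 0.05. Of the 40 histone genes, 27 rose and 5 fell in APT121 prostate, while 8 did not pass the test. Over all genes tested, 52.8% were called, 22.8% higher and 30.0% lower. The median difference was 0.45 for the histone genes and -0.09 for all genes. On the arrays, 20 of the 40 genes had every APT121 value above every wild type value, a pattern that 17.7% of all genes showed, and 2 had every value below, as 16.9% of all genes did. In all, 22 of the 40 genes had groups without overlap, against 34.6% of all genes. A rise of at least 2-fold was called for 12 of the 40 genes, against 5.73% of all genes, and one of at least 4-fold for 3 of them, H1f5, H1f1 and H2ac4, against 1.96%.

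**Figure D1:**
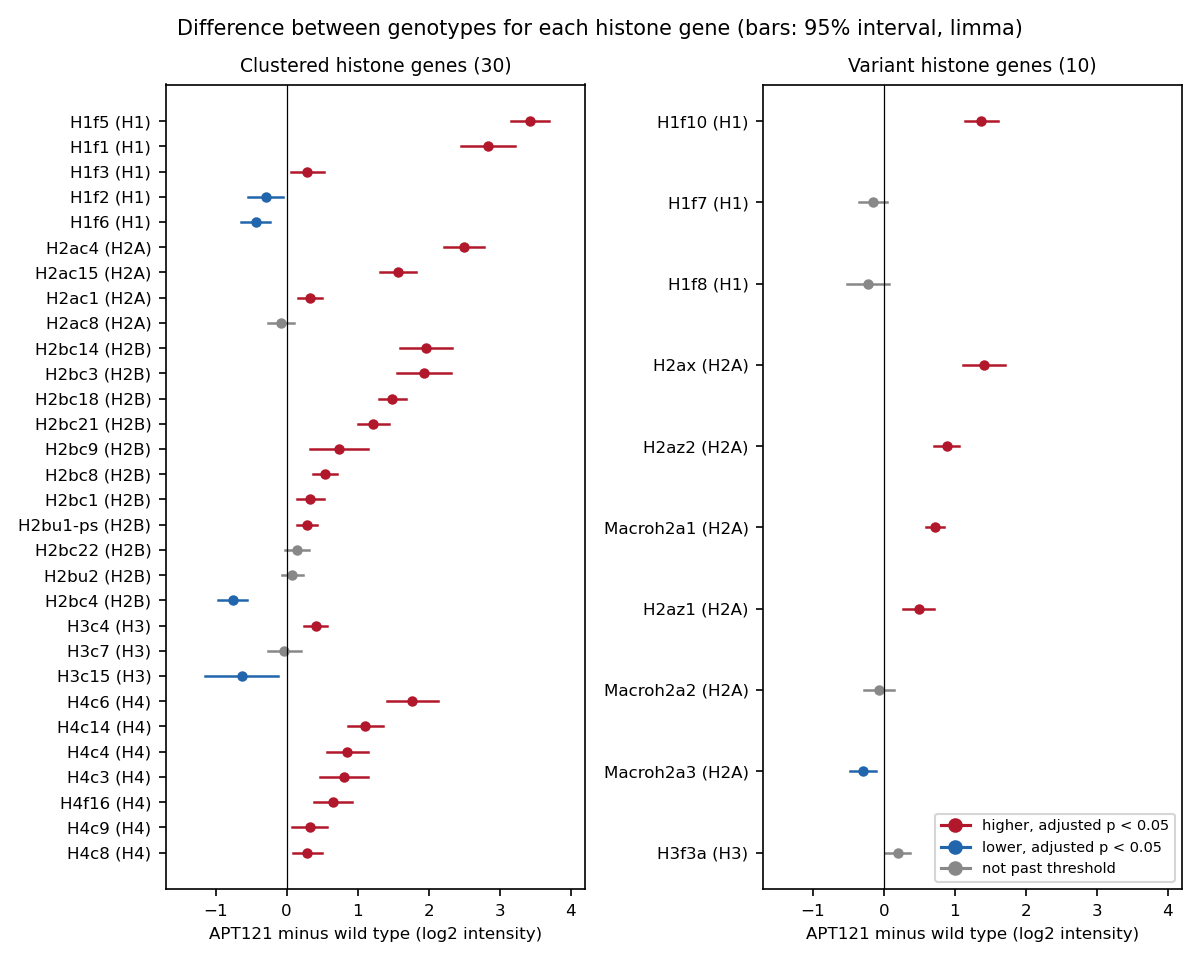
Difference between APT121 and wild type arrays (log2 intensity, horizontal axis) for the 30 clustered and 10 variant histone genes, with 95% intervals from limma; red marks 27 genes that rose, blue 5 that fell and grey 8 that did not pass the test. H1f5 lies farthest to the right at 3.43 and H2bc4 farthest to the left at -0.76, and all 7 H4 genes lie above 0.

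Promoters are shown for some of the genes on which the results turn, and no motif marked below is in all of the clustered ones. The 150 bases before the annotated start are given 5′ to 3′ on the gene's strand, from RefSeq on GRCm38.p6, for the 2 linker histone genes with the largest rises and one that fell, for 4 core histone genes that rose at least 3-fold, and for a variant. On either strand, capitals mark exact matches to CCAAT (the CCAAT box), TATAAA (a form of the TATA box), ATTTGCAT (the octamer), AAACACA (the H1 box) and GGTCCG (an element of H4 promoters).
H1f5, chr13:21780626-21780775, - strand: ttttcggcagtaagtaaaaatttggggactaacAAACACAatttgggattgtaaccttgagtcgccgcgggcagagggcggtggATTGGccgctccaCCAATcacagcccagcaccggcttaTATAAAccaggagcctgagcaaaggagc
H1f1, chr13:23763518-23763667, + strand: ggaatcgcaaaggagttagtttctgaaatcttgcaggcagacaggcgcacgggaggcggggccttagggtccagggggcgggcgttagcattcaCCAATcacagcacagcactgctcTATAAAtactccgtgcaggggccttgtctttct
H1f2, chr13:23738657-23738806, + strand: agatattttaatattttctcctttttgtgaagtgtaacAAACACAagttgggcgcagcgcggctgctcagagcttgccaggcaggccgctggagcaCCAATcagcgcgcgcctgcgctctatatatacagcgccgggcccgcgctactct
H2ac4, chr13:23750938-23751087, + strand: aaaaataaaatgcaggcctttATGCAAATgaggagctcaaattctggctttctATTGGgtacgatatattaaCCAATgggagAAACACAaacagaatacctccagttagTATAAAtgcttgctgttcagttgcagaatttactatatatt
H2bc3, chr13:23746584-23746733, + strand: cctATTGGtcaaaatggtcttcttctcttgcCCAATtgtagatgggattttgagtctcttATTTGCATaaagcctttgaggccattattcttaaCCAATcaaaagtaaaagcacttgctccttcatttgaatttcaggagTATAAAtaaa
H2bc14, chr13:21721894-21722043, + strand: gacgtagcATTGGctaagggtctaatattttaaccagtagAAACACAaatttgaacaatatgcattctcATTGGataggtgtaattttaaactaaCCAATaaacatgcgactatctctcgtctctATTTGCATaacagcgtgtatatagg
H4c6, chr13:23551669-23551818, - strand: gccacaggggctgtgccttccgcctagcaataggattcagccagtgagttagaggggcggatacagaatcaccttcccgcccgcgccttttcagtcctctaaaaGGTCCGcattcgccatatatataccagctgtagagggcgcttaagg
H2az1, chr3:137864337-137864486, + strand: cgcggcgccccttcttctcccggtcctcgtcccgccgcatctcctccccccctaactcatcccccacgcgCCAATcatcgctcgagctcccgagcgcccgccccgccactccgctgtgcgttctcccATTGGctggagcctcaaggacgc

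Promoters were found for 33 of the 40 genes, 25 clustered and 8 variant, and motifs were counted in the 250 bases before the start on both strands. Only exact matches were counted, so other forms of a motif, such as other TATA boxes, are missed. CCAAT stood in 20 of the 25 clustered promoters and 4 of the 8 variant ones, against 33.8% of the 32851 promoters in the table. TATAAA stood in 15 of the 25 clustered promoters and 0 of the 8 variant ones, against 12.4% of all. The octamer stood in 5 of 8 H2B and 3 of 4 H2A promoters of the clusters and in no other member, against 1.60% of all promoters. The H1 box stood in 4 of 5 clustered H1 promoters, 2 of 4 H2A and 2 of 8 H2B, and in 1 of the 8 variants, against 6.25% of all. GGTCCG, which was added to the search after the sequences were seen, stood in 5 of 6 clustered H4 promoters and in 1 other clustered promoter and 3 variants, against 6.72% of all. Of the E2F-type sequences searched, TTTGGCGC was in 0 and TTTCGCGC in 1 of the 25 clustered promoters, against 0.417% and 0.256% of all. No match overlapped one of another motif. Of the 19 clustered promoters of genes called higher and the 6 others, CCAAT was in 15 and 5 and TATAAA in 12 and 3. The octamer was in 7 and 1, the H1 box in 6 and 2, GGTCCG in 6 and 0 and TTTCGCGC in 0 and 1. These splits were not tested, and a match is a description of letters, not of binding. They leave out clustered genes without a promoter here, among them H2bc4, which had the largest fall, and H2bc21 and H4c14, which rose.

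The linker histones, which bind the DNA between nucleosomes, gave the largest rise and also 2 of the falls, H1f2 and the testis gene H1f6, which is described with the germline genes. H1f5, a replication-dependent H1, had 11.36, 11.53, 11.64 and 10.87 in the 4 APT121 arrays, against 7.63 to 8.12 (median 7.93) in wild type. Every APT121 array stood more than 2 units above every wild type array. Its difference was 3.43 ± 0.12, a 10.8-fold rise (limma, adjusted p = 3.23e-12). H1f1, another clustered H1 gene, had 8.64, 8.93, 9.38 and 8.00 in APT121 arrays, against 5.64 to 6.14 (median 5.96) in wild type, and rose 7.14-fold (2.84 ± 0.18; limma, adjusted p = 1.73e-09). The groups were again far apart, and array 4 was the lowest of the APT121 arrays for both genes.

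H1f2, a clustered H1 gene that is also expressed outside S phase through a polyadenylated transcript, went the other way. It had 7.40, 7.71, 7.57 and 7.30 in APT121 arrays, against 7.50 to 8.15 (median 7.77) in wild type, with overlap between the groups. The difference was -0.29 ± 0.12 (limma, adjusted p = 0.0433) and lost its call when APT121 array 1, 3 or 4 or wild type array 1, 2, 3, 4 or 6 was left out, with adjusted p of 0.0540 to 0.145 for H1f2 and differences of -0.32 to -0.23. Its promoter, shown above, holds CCAAT and the H1 box as that of H1f5 does. It has no exact TATAAA, but the similar letters tatatata stand after its CCAAT. H1f3, the other somatic H1 gene with a probe set of its own, rose by 0.29 ± 0.11 at a low signal (limma, adjusted p = 0.0343). That call ended when APT121 array 2 or 4 or wild type array 1, 2, 4, 7 or 8 was left out, with adjusted p of 0.0508 to 0.115, and when arrays were centred on their medians, with 0.0590. H1f4 was measured only together with H2bc6 and is described with the shared probe sets.

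H2A and H2B form the dimers of the nucleosome. Of 4 clustered H2A genes, 3 rose and 0 fell. H2ac4 had 5.65, 5.54, 5.27 and 5.04 in APT121 arrays, against 2.58 to 3.18 (median 2.87) in wild type, and rose 5.64-fold (2.50 ± 0.13; limma, adjusted p = 1.69e-10), although its mean over all arrays was among the lowest 25% of genes. H2ac15 had 7.63, 8.00, 7.79 and 7.14 in APT121 arrays, against 6.00 to 6.25 (median 6.05) in wild type, and rose 2.96-fold (1.57 ± 0.12; limma, adjusted p = 1.55e-08). No APT121 array overlapped the wild type arrays for either gene. H2ac8 had 2.77, 2.77, 2.61 and 2.56 in APT121 arrays, against 2.45 to 2.93 (median 2.78) in wild type, with a difference of -0.08 ± 0.08 (limma, adjusted p = 0.441; 95% interval -0.26 to 0.10).

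Of 11 clustered H2B genes, 8 rose, 1 fell and 2 did not pass. H2bc14 had 8.46, 9.04, 9.21 and 8.33 in APT121 arrays, against 6.48 to 7.24 (median 6.64) in wild type, a 3.91-fold rise (1.97 ± 0.17; limma, adjusted p = 8.36e-08). H2bc3 had 5.47, 6.38, 6.09 and 5.05 in APT121 arrays, against 3.61 to 4.02 (median 3.81) in wild type, a 3.83-fold rise (1.94 ± 0.18; limma, adjusted p = 1.83e-07). For both genes arrays 2 and 3 were the highest and array 4 the lowest of the APT121 arrays. H2bc18 had 6.73, 6.58, 6.98 and 6.65 in APT121 arrays, against 5.11 to 5.53 (median 5.22) in wild type, a 2.81-fold rise (limma, adjusted p = 7.85e-10), with the APT121 arrays close together.

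The H2B genes known to give polyadenylated transcripts in cells that no longer divide did not move together. H2bc4 (older symbol Hist1h2bc) had 7.73, 8.09, 8.00 and 7.70 in APT121 arrays, against 8.32 to 8.87 (median 8.65) in wild type, and was 1.69-fold lower in APT121 (-0.76 ± 0.10; limma, adjusted p = 5.68e-06). All 4 APT121 arrays lay below all 8 wild type arrays. This holds for the probe set tied to H2bc4 alone, and shared probe sets that also list H2bc4 rose, as described below. H2bc21 (older symbol Hist2h2be) had 6.59, 6.61, 6.52 and 6.49 in APT121 arrays, against 5.02 to 5.67 (median 5.29) in wild type, and rose 2.33-fold (1.22 ± 0.10; limma, adjusted p = 6.18e-08). Here all 4 APT121 arrays lay above.

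The other H2B genes that rose were H2bc9, H2bc8, H2bc1 and H2bu1-ps, by 0.29 to 0.74. H2bc9 had 7.52, 8.99, 7.94 and 7.92 in APT121 arrays, against 7.10 to 7.62 (median 7.39) in wild type, so that array 2 stood apart; without APT121 array 2 its difference was 0.44 in place of 0.74 (limma, adjusted p = 0.00724 and 0.00441). H2bc22, with 4.04, 4.23, 3.83 and 4.18 in APT121 arrays against 3.84 to 4.05 (median 3.88) in wild type, differed by 0.14 ± 0.08 (limma, adjusted p = 0.144; 95% interval -0.03 to 0.31), and passed without APT121 array 3 (0.22, adjusted p = 0.0265). H2bu2, with 5.03, 4.93, 4.98 and 5.13 in APT121 arrays against 4.76 to 5.08 (median 4.94) in wild type, differed by 0.08 ± 0.07 (limma, adjusted p = 0.329; 95% interval -0.07 to 0.23).

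All 7 H4 genes rose, with a median difference of 0.81; H4 with H3 forms the core tetramer of the nucleosome. H4c6 had 8.54, 8.98, 8.80 and 7.98 in APT121 arrays, against 6.42 to 7.26 (median 6.78) in wild type, a 3.42-fold rise (1.77 ± 0.17; limma, adjusted p = 2.3e-07). H4c14 had 8.90, 9.39, 9.45 and 8.71 in APT121 arrays, against 7.85 to 8.13 (median 8.03) in wild type, a 2.16-fold rise (1.11 ± 0.12; limma, adjusted p = 9.27e-07). The groups did not overlap for either gene, nor for H4c4 (0.86), and they did for H4c3 (0.81), H4f16 (0.65), H4c9 (0.33) and H4c8 (0.29). The weakest calls were lost when a single array was left out: H4c9 (limma, adjusted p = 0.0273) was at 0.0570 to 0.122 without APT121 array 1, 2 or 3, with differences of 0.32, 0.24 and 0.32, and H4c8 (adjusted p = 0.0194) was at 0.0571 without APT121 array 1, with 0.27. H4c9 also missed the threshold under both rescalings of the arrays, with adjusted p of 0.0517 after median centring and 0.0601 after repeated quantile normalisation.

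Few clustered H3 genes have a probe set of their own. Those that do are also listed by shared probe sets that rose, described below. H3c4 had 5.02, 4.70, 4.85 and 4.95 in APT121 arrays, against 4.35 to 4.61 (median 4.44) in wild type, and rose by 0.41 ± 0.07 (limma, adjusted p = 0.000261), without overlap. H3c15 had 2.99, 3.76, 3.08 and 3.68 in APT121 arrays, against 3.22 to 4.59 (median 4.08) in wild type, an overlapping and widely spread set of values with a difference of -0.63 ± 0.24 (limma, adjusted p = 0.0377). That call ended without APT121 array 1 or 3 or wild type array 1, 2, 3 or 8, with differences of -0.60 to -0.50 and adjusted p of 0.0605 to 0.131, and after repeated quantile normalisation, with 0.0970. H3c7 had 2.53, 2.66, 2.50 and 2.47 in APT121 arrays, against 2.21 to 2.94 (median 2.57) in wild type, and differed by -0.03 ± 0.11 (limma, adjusted p = 0.816; 95% interval -0.27 to 0.20).

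**Figure D2:**
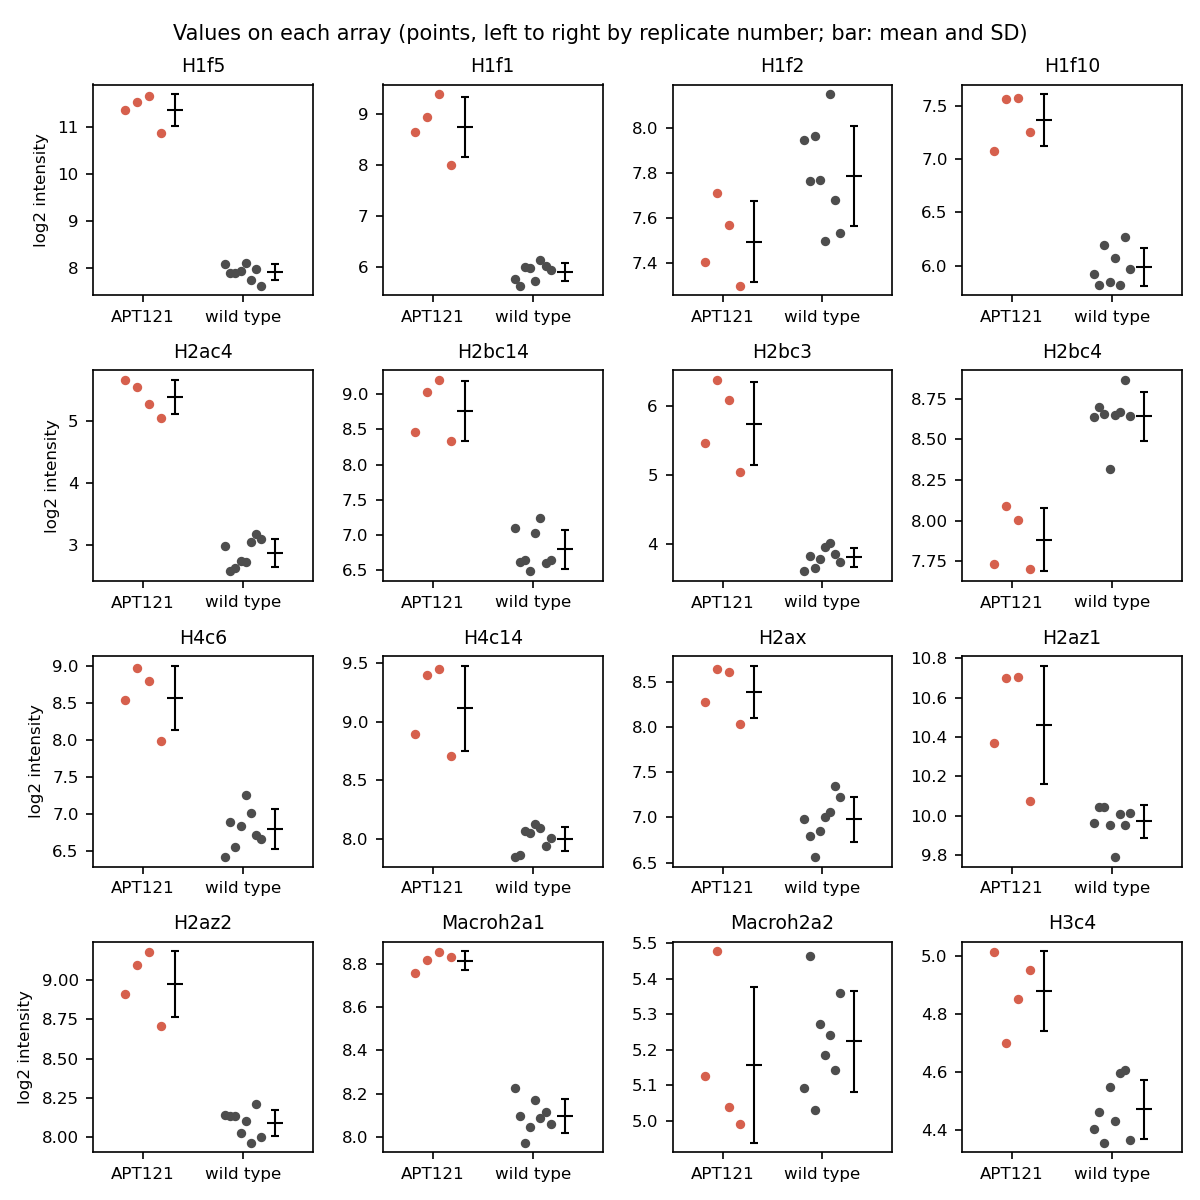
Log2 intensity (vertical axis) of 16 histone genes on each of 4 APT121 and 8 wild type arrays; points are arrays and bars the mean and SD. H1f5, H1f1, H2ac4 and H2bc3 are separated by wide gaps, H2bc4 is lower in every APT121 array, and Macroh2a2 overlaps.

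Most clustered genes of one type are so alike that the array reads them together. A further 32 transcript clusters list a histone gene with other genes. Of these, 26 list several histone genes, and the other 6 list an H3.3 gene with a gene that is no histone by symbol. Among the 26, 2 clusters repeat the values of another. These clusters share probes, so they are not independent and no single gene can be credited with their signal. Whether near-identical copies also add to the probe sets tied to 1 gene was not tested. Of the 26, 25 rose, 0 fell and the same 25 had the APT121 arrays above the wild type arrays, against 20.0% of all 28815 transcript clusters called higher, 27.2% called lower and 15.6% with all APT121 arrays above.

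The shared H3 clusters, 10 probe sets that each list 12 genes, had medians of 11.77, 12.20, 12.20 and 11.47 in APT121 arrays, against 9.12 to 9.57 in wild type. They rose by 2.45 to 2.67, that is 5.47-fold to 6.35-fold (limma, adjusted p at most 3.94e-10). Each of them also lists the 3 clustered H3 genes with probe sets of their own, H3c4, H3c7 and H3c15. Those own probe sets spanned -0.63 to 0.41, with wild type means of only 4.47, 2.57 and 4.01, and the gap was not tested. Likewise, the shared H2B clusters each list H2bc4 and H2bc22, whose own probe sets fell or did not pass. The 7 shared H2B clusters rose by 1.77 to 2.13, the 5 shared H4 clusters by 1.12 to 1.17 and the 2 shared H2A clusters by 0.63 to 0.66. Those 2 list 19 and 20 symbols, with the variant H2ax, the H3 gene H3c4 and H2af-ps2 among them, so their signal is not of clustered H2A genes alone. H1f4 read with H2bc6 rose by 0.50, and H4c11 read with H4c17 was the exception at -0.04 ± 0.23 (limma, adjusted p = 0.901).

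**Figure D3:**
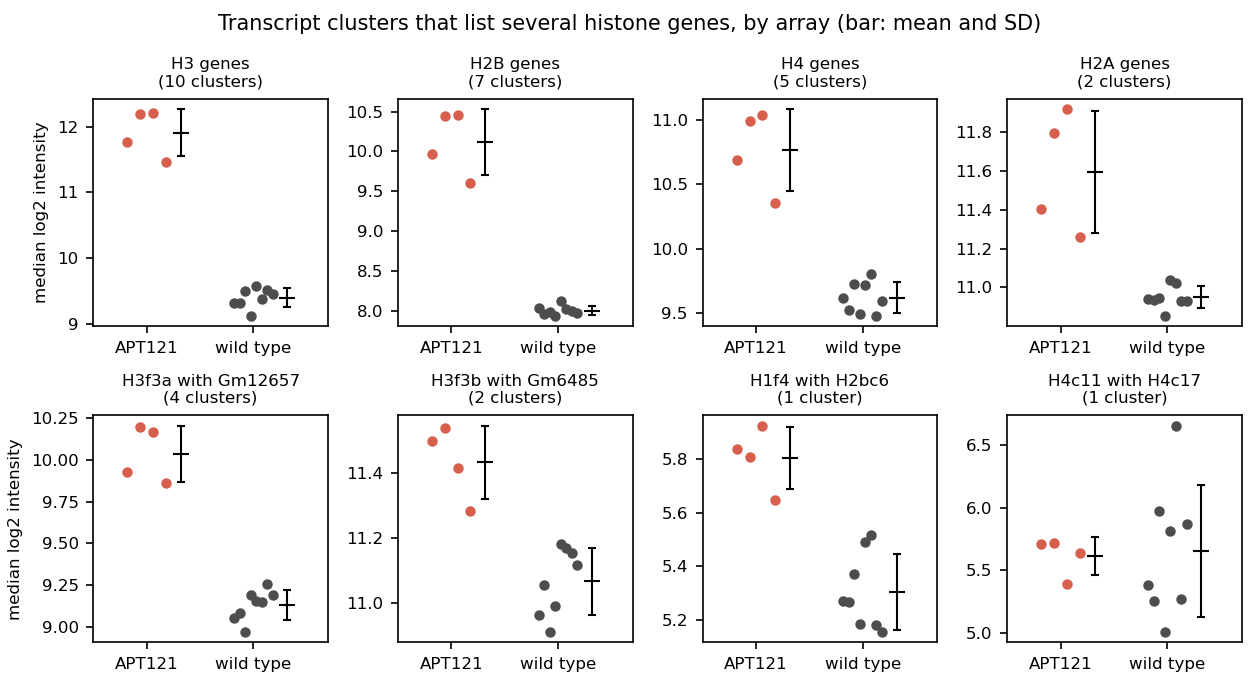
Median log2 intensity (vertical axis) on each array over the transcript clusters of each family that list several genes, with the mean and SD as bars; APT121 arrays are on the left of each panel. In 7 of the 8 panels the 4 APT121 arrays lie above the 8 wild type arrays; in the panel of H4c11 with H4c17 they overlap.

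Of the 10 variant histone genes, 5 rose, 1 fell and 4 did not pass, and the median difference was 0.34. H2ax encodes H2A.X, which is phosphorylated at DNA breaks. It had 8.27, 8.64, 8.60 and 8.03 in APT121 arrays, against 6.56 to 7.35 (median 6.99) in wild type, a 2.65-fold rise (1.41 ± 0.14; limma, adjusted p = 3.3e-07). H1f10, which encodes the H1X linker variant, had 7.07, 7.56, 7.57 and 7.25 in APT121 arrays, against 5.81 to 6.27 (median 5.94) in wild type, a 2.59-fold rise (1.38 ± 0.11; limma, adjusted p = 3.1e-08). Neither gene's groups overlapped.

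H2az1 and H2az2 encode the 2 forms of H2A.Z, a variant found at promoters. H2az1 had 10.37, 10.70, 10.70 and 10.07 in APT121 arrays, against 9.79 to 10.04 (median 9.99) in wild type, a 1.40-fold rise (0.49 ± 0.10; limma, adjusted p = 0.000761), and a further probe set of H2az1 gave the same difference of 0.49. H2az2 had 8.91, 9.10, 9.18 and 8.71 in APT121 arrays, against 7.96 to 8.21 (median 8.12) in wild type, a 1.84-fold rise (0.88 ± 0.08; limma, adjusted p = 2.09e-07). The APT121 arrays lay above the wild type arrays for both. Within arrays, H2az1 minus H2az2 averaged 1.49 ± 0.10 in APT121 and 1.88 ± 0.12 in wild type (SD, n = 4 and 8), a change of -0.39 (two-sided exact permutation p = 0.00404, the smallest this design can give; adjusted over 4 pairs 0.00539). H2ax minus H2az1 changed by 0.92 with the same exact permutation p, and its values were -2.10 to -2.04 in APT121 and -3.48 to -2.61 in wild type.

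MacroH2A variants carry a large extra domain and are known from silent chromatin. Macroh2a1 had 8.76, 8.82, 8.86 and 8.84 in APT121 arrays, against 7.97 to 8.22 (median 8.09) in wild type, a 1.65-fold rise (0.72 ± 0.06; limma, adjusted p = 5.5e-08), with little spread between APT121 arrays. Macroh2a2 had 5.13, 5.48, 5.04 and 4.99 in APT121 arrays, against 5.03 to 5.46 (median 5.21) in wild type, and differed by -0.07 ± 0.10 (limma, adjusted p = 0.582; 95% interval -0.27 to 0.14). The difference between the genes was tested itself: Macroh2a1 minus Macroh2a2 averaged 3.66 ± 0.23 in APT121 and 2.87 ± 0.17 in wild type, a change of 0.79 (two-sided exact permutation p = 0.00404, adjusted over 4 pairs 0.00539). Macroh2a3, annotated as a transcribed pseudogene, had 4.31, 4.51, 4.33 and 4.25 in APT121 arrays, against 4.48 to 4.84 (median 4.63) in wild type, and fell by 0.30 (limma, adjusted p = 0.00820); after repeated quantile normalisation the difference was -0.22 and the adjusted p 0.0740.

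H3.3 is the replacement form of H3, laid down outside S phase and encoded by H3f3a and H3f3b. The H3f3a probe set tied to that gene alone had a signal among the lowest 25% of genes, with 3.55, 3.30, 3.27 and 3.24 in APT121 arrays against 2.89 to 3.30 (median 3.14) in wild type. Its difference of 0.20 ± 0.08 missed the threshold (limma, adjusted p = 0.0569; 95% interval 0.02 to 0.37), and passed without wild type array 2 or 7 (adjusted p = 0.0443 and 0.0389) and after repeated quantile normalisation (adjusted p = 0.00779). The 4 probe sets that list H3f3a with Gm12657 rose by 0.81 to 0.91, with medians of 9.92, 10.19, 10.16 and 9.86 in APT121 arrays against 8.97 to 9.26 in wild type. The 2 that list H3f3b with Gm6485 rose by 0.34 to 0.39. The shared probe sets may read either gene they list.

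The germline histones were considered apart. H1f6 (testis-specific H1), H2ac1 and H2bc1 (testis forms) lie in the chromosome 13 cluster, H1f7 is a testis linker and H1f8 the oocyte linker. H1f6 had 3.31, 3.20, 3.21 and 3.34 in APT121 arrays, against 3.45 to 4.02 (median 3.72) in wild type, and all APT121 arrays lay below (-0.43 ± 0.10; limma, adjusted p = 0.00138). The probe sets of H1f6 and H2bc1 were dim, at percentiles 20.7 and 18.8 of genes by mean. H2ac1 had 7.23, 7.03, 7.24 and 6.86 in APT121 arrays, against 6.60 to 6.86 (median 6.77) in wild type, and H2bc1 had 3.48, 3.95, 3.66 and 3.63, against 3.07 to 3.47 (median 3.39) in wild type. Each of them rose by 0.33 (limma, adjusted p = 0.00211 for H2ac1 and 0.00588 for H2bc1), and that of H2ac1 became 0.16 with an adjusted p of 0.134 after repeated quantile normalisation. H1f7 had 4.71, 4.47, 4.68 and 4.81 in APT121 arrays, against 4.58 to 5.09 (median 4.81) in wild type, and differed by -0.15 ± 0.09 (adjusted p = 0.184; 95% interval -0.36 to 0.05; limma). H1f8 had 3.63, 3.42, 3.89 and 3.48 in APT121 arrays, against 3.34 to 4.09 (median 3.90) in wild type, and differed by -0.22 ± 0.14 (adjusted p = 0.186; 95% interval -0.51 to 0.07; limma). Of 7 testis germ cell markers, 0 rose and 2 fell, with 5 not called, where 22.8% of all genes rose and 30.0% fell. The summed intensity of these markers was 103 to 117 in APT121 arrays and 171 to 256 in wild type. Most of that gap lay in Acrv1; the other 6 summed to 75.8 to 82.5 in APT121 arrays and 86.0 to 91.7 in wild type.

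More genes were called at higher signal. Among the 9 histone genes in the lowest 25% of mean intensity over all arrays, 3 rose and 2 fell, where 138 of 4983 genes rose and 942 fell. Of the 12 in the next 25%, 7 rose and 1 fell, where 752 of 4984 genes rose and 1829 fell. Of the 19 in the upper 50%, 17 rose and 2 fell, where 3650 of 9968 genes rose and 3216 fell. The mean includes the APT121 arrays, so a rise itself moves a gene toward higher signal, and these counts are not independent of the calls.

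Within the APT121 group, most histone genes that rose had their lowest value in array 4. Of the 27 genes that rose, 19 were lowest in APT121 array 4 and 0 were highest there, while array 1 was lowest for 4 genes and arrays 2 and 3 for 2 each. The highest value lay in array 2 or 3 for 11 genes each and in array 1 for 5. The shared probe sets that rose were lowest in array 4 in 31 of 31. Over all 4540 genes called higher, array 4 was lowest for 27.1% and array 3 for 50.2%, and the highest value lay in array 4 for 34.4% and in array 3 for 12.9%. The mean of the 30 clustered genes stood above the wild type mean by 0.74, 0.97, 0.87 and 0.58 in APT121 arrays 1 to 4. The mean of 12 S phase genes (Mcm2 to Mcm7, Pcna, Rrm1, Rrm2, Tyms, Ccna2 and Mki67) stood above it by 3.36, 3.65, 3.56 and 3.21, and is thus also lowest in array 4 and highest in array 2. All 12 S phase genes rose, with a median difference of 3.18, and their part in the histone values was not tested.

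**Figure D4:**
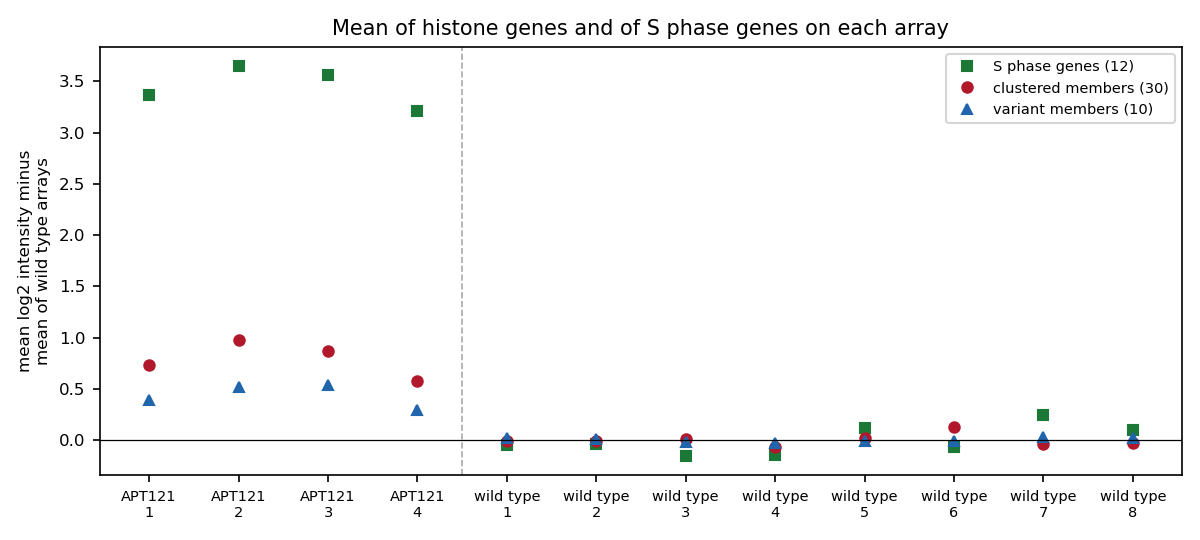
Mean log2 intensity of the 30 clustered histone genes, the 10 variant histone genes and 12 S phase genes on each array, minus the mean over wild type arrays (vertical axis). In APT121 arrays the S phase mean lies between 3.21 and 3.65, the clustered mean between 0.58 and 0.97 and the variant mean between 0.29 and 0.53, each lowest in array 4.

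The genes that make histone transcripts mostly rose. Of 15 measured genes of histone gene transcription and 3′ processing, 9 rose and 1 fell, with a median difference of 0.75. The counts of this list and of those that follow stand beside 22.8% of all genes called higher and 30.0% called lower. NPAT, which cyclin E and CDK2 activate at histone genes, had 7.62, 7.66, 7.45 and 7.48 in APT121 arrays, against 6.07 to 6.42 (median 6.19) in wild type (1.32 ± 0.08; limma, adjusted p = 5.91e-10). Casp8ap2, which encodes the FLASH protein of histone pre-mRNA processing, rose 2.82-fold, Ccne2 (cyclin E2) 5.48-fold, Cdk2 3.07-fold and Ccne1 (cyclin E1) 2.18-fold. Slbp, whose product binds the histone stem-loop, had 8.80, 8.80, 8.97 and 8.03 in APT121 arrays, against 6.85 to 7.42 (median 7.06) in wild type (1.58 ± 0.15; limma, adjusted p = 1.97e-07), and array 4 was again the lowest of the APT121 arrays.

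Slbp minus Npat changed by 0.26 (two-sided exact permutation p = 0.218); without APT121 array 4 the change was 0.44 and the exact permutation p adjusted over the pairs 0.0485. Hinfp, which encodes an activator that binds H4 promoters, had 6.43, 6.78, 6.52 and 6.48 in APT121 arrays, against 6.31 to 6.67 (median 6.52) in wild type, and differed by 0.03 ± 0.08 (limma, adjusted p = 0.780; 95% interval -0.15 to 0.21). Sympk, a scaffold of 3′ end cleavage, fell (-0.64 ± 0.20; limma, adjusted p = 0.0135); the adjusted p was 0.0661 without APT121 array 1, with -0.49, and 0.157 on the mean of its probe sets, with -0.25.

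Of 5 genes of histone mRNA decay, 4 rose and 0 fell. Eri1, an exonuclease that trims the histone stem-loop, had 8.03, 7.96, 7.83 and 7.87 in APT121 arrays, against 5.77 to 6.42 (median 6.18) in wild type (1.76 ± 0.10; limma, adjusted p = 5.66e-10). Tut4, a uridylyltransferase, had 8.36, 8.44, 8.34 and 8.41 in APT121 arrays, against 6.32 to 7.22 (median 6.88) in wild type (1.55 ± 0.15), without overlap. Tut7 and Upf1 rose by 0.26 and 0.16. The call of Upf1 (limma, adjusted p = 0.0418) ended when leaving out APT121 array 1 or 2 or wild type array 3, 4, 5 or 6, with differences of 0.14 to 0.16 and adjusted p of 0.0561 to 0.133. Both missed the threshold after repeated quantile normalisation, with adjusted p of 0.106 for Tut7 and 0.536 for Upf1.

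Of 13 measured chaperones that carry new histones to replicating DNA, 12 rose and 1 fell. Their median difference of 1.69 was the largest among the 4 lists of histone supply genes. Chaf1b and Chaf1a, subunits of chromatin assembly factor 1, rose 11.3-fold and 4.82-fold. Chaf1b had 8.55, 8.86, 8.68 and 8.30 in APT121 arrays, against 4.69 to 5.56 (median 5.08) in wild type (limma, adjusted p = 1.78e-11). Asf1b, the proliferation-linked H3-H4 chaperone, had 8.73, 8.94, 8.75 and 8.45 in APT121 arrays, against 4.86 to 5.45 (median 5.24) in wild type, an 11.2-fold rise (limma, adjusted p = 1.07e-12). Its paralog Asf1a rose 1.47-fold, and the difference between them was not tested. Mcm2, a helicase subunit that also binds histones, rose 9.17-fold, Mms22l, which works with Tonsl at replication forks, 7.12-fold and Hat1, the acetyltransferase of new H4, 4.44-fold. Ipo4, the importin that carries H3-H4 with Asf1, went against the rest with 8.04, 8.16, 8.20 and 7.97 in APT121 arrays, against 8.82 to 9.13 (median 9.03) in wild type (-0.89 ± 0.08; limma, adjusted p = 8.28e-08).

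**Figure D5:**
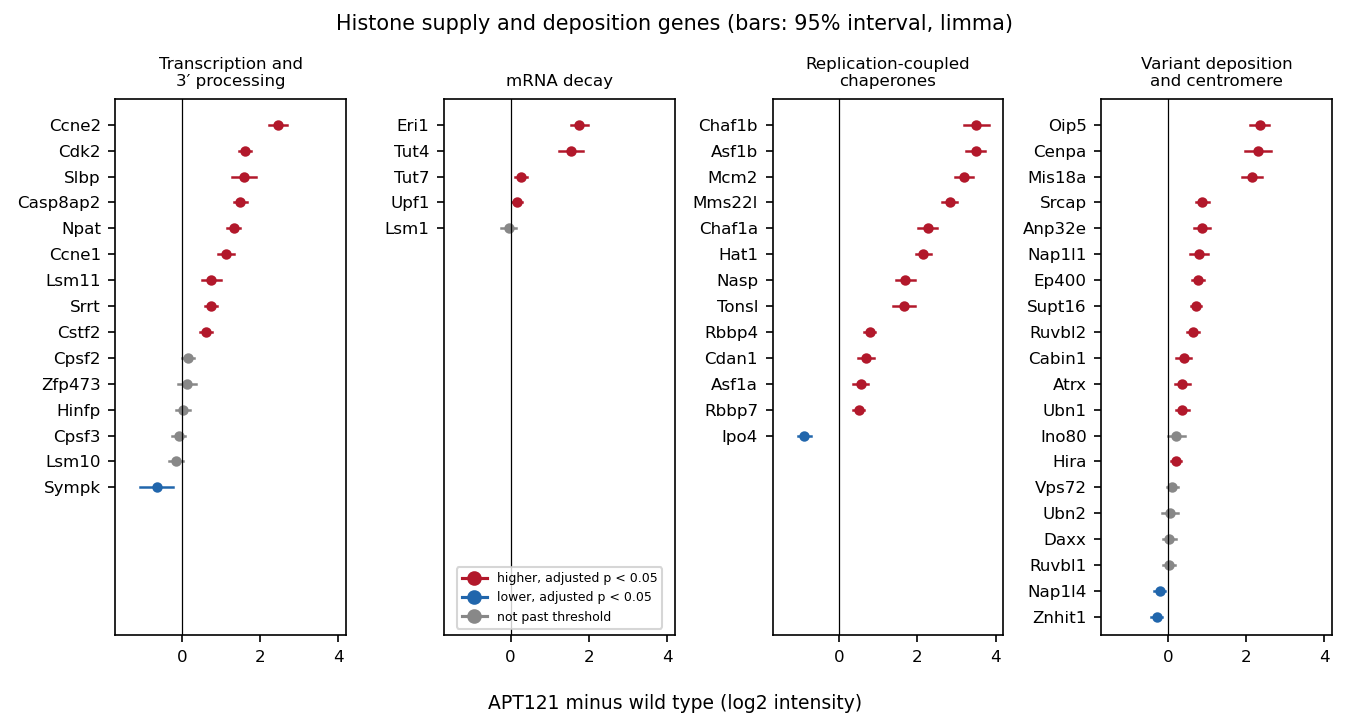
Difference between APT121 and wild type arrays (log2 intensity, horizontal axis) with 95% intervals from limma for genes of histone gene transcription and 3′ processing (15), histone mRNA decay (5), replication-coupled chaperones (13) and variant deposition and the centromere (20); red marks rises, blue falls and grey genes that did not pass. Chaf1b and Asf1b lie near 3.5, whereas Hira and Daxx lie near 0.21 and 0.04.

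Of 20 measured genes of variant deposition and the centromere, 13 rose and 2 fell, with a median difference of 0.40. The largest rises were of genes of the centromeric H3: Cenpa, the centromeric H3 variant itself, had 7.76, 8.42, 8.38 and 7.47 in APT121 arrays, against 5.33 to 5.90 (median 5.72) in wild type (2.31 ± 0.16; limma, adjusted p = 3.8e-09). Oip5 and Mis18a, which prepare centromeres for it, rose by 2.35 ± 0.11 and 2.15 ± 0.12. Srcap, which exchanges H2A.Z into chromatin, rose by 0.89 ± 0.08, and Anp32e, which removes it, by 0.87 ± 0.10. Among the H3.3 chaperones, Hira had 7.40, 7.44, 7.40 and 7.51 in APT121 arrays, against 7.12 to 7.31 (median 7.22) in wild type (0.21 ± 0.06; limma, adjusted p = 0.00779), a difference of 0.04 after repeated quantile normalisation (adjusted p = 0.645). Daxx had 6.82, 6.90, 6.86 and 6.78 in APT121 arrays, against 6.53 to 6.98 (median 6.80) in wild type, and differed by 0.04 ± 0.08 (limma, adjusted p = 0.688; 95% interval -0.13 to 0.20). Znhit1 and Nap1l4 fell by 0.28 and 0.21 (limma, adjusted p = 0.00292 and 0.0128), and Nap1l4 was at -0.17 with an adjusted p of 0.0602 without APT121 array 2.

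Markers of the cell types in the lobe differed between the groups as well, and in bulk tissue fewer cells of a type and less RNA per cell cannot be told apart. Of 6 luminal epithelium markers, 1 rose and 4 fell, with summed intensities of 9990 to 15826 in APT121 arrays and 30961 to 34268 in wild type. Tgm4 and Pbsn had the highest wild type means of them, 13.91 and 12.79, and fell by 2.74 and 3.27. Hoxb13 and Cd24a fell by 0.57 and 0.83, Krt8 rose by 1.00 and Krt18 differed by -0.04, so these markers did not move together. As a background for the marker counts, 22.8% of all genes were called higher and 30.0% lower. All 4 basal and all 6 smooth muscle markers fell. Of 9 myeloid markers 8 rose, with sums of 743 to 1549 in APT121 arrays and 571 to 709 in wild type, and of 8 lymphocyte markers 2 rose and 1 fell. All 6 adipose and all 6 endothelial markers fell. Seminal vesicle markers, of a gland that adjoins the lobe, summed to 1569 to 17974 in APT121 arrays and 104 to 15991 in wild type, with 3 of 8 called higher. Wild type array 6 stood apart with 15991, where the other wild type arrays had 104 to 201. Without wild type array 6, 27 histone genes rose and 4 fell, among 4453 and 5726 of all genes. No marker was at 0, as the array gives none, and the part of these shifts in the histone values was not tested.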

How the data were processed

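RNA was hybridised to Affymetrix GeneChip Mouse Gene 1.0 ST arrays with labelling given in the labels only as the standard Affymetrix method, so how transcripts without a poly(A) tail were primed is not given in the sources used here. The authors deposited 1 linear intensity per transcript cluster and array, made by RMA, per the submitters' processing notes. RMA ties the value distributions of the arrays together, so a shift in RNA content of the cells is hidden. Array medians ran from 32.1 to 33.7, and precision is set by how many arrays there are.

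The deposited intensity was put on the log2 scale here. Of 28815 transcript clusters, 21780 carry 1 symbol in GEO's platform annotation, 1605 several and 5430 none. The gene IDs of 21689 of those with 1 symbol were found in RefSeq, 40 of 40 histone genes included, and 0 symbols differed. For 998 genes with more than 1 cluster the one with the highest mean was used, which left 19935 genes, with no filter on low values. H1f0, H3f3b and H1f4 have no cluster of their own here. The values name no genome build; coordinates belong to the RefSeq promoter table (GRCm38.p6).

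A linear model with genotype alone was fitted to all 12 arrays (limma 3.58.1, R 4.3.3, eBayes, two-sided), and p-values were adjusted over all genes by Benjamini-Hochberg, with calls under 0.05. The procedure was tested on simulated data in which 200 of 19935 genes were changed. Of changes of 0.5, limma recovered 85.1%, and 5.08% of its calls were false. In the real data 52.8% of genes were called, so these rates need not carry over. Within-array differences of 4 gene pairs were compared by an exact permutation test over arrays (scipy 1.17.1). Pairs with H3f3b or H1f0 were left out because these have no value. The study's design names SAM at a 5% false discovery rate; a SAM-type statistic with 100 permuted groupings was an alternative, beside rescaling, filters, variance models, weights for arrays, averaging a gene's clusters, subsets of wild type arrays, leaving out each array and a 1.5-fold minimum.

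The members and the 14 lists (133 genes, 125 measured) were chosen with earlier results of these data known. Values are given in full for the 10 called genes with the largest absolute difference in each class, for variants named beforehand and for members that did not pass; named from each list, with values or folds, are the 5 largest, those against the majority, and Npat, Slbp, Casp8ap2, Asf1b, Chaf1a, Chaf1b, Hira, Daxx and Cenpa; a few more were named after their values were seen. Replicate numbers 1 to 4 occur in both groups but do not pair arrays: the deviations of same-numbered arrays correlated at 0.040, 0.044, 0.116 and -0.013.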

Additional observations from a re-analysis of the deposited data

Results flagged for a closer look

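In a check of 65 genes in each of the 2 groups, 130 in all, 5 had an array whose gap to its nearest neighbour took an unusually large share of the group's range. Chance alone marks about 1 in 20 groups. All 5 were low values of wild type arrays: H2ac1 at 6.60 in wild type array 2 (median 6.77), H2bc1 at 3.07 in wild type array 7 (median 3.39), H2bc4 at 8.32 in wild type array 4 (median 8.65), H2az1 at 9.79 in wild type array 5 (median 9.99) and Mis18a at 5.54 in wild type array 7 (median 5.74). For H2bc4 the array still lay above every APT121 array, the highest of which was at 8.09.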

How the results depend on the processing

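No called difference changed sign under any alternative; the uncalled differences of H3c7, H2ac8 and Daxx, within 0.08 of 0, did under at least 1. Of the calls, those of 24 of the 40 histone genes held under all of them, and 16 changed under at least 1, of which H4c9, H1f2, H1f3 and H3c15 did so under 9 to 11. The counts of histone genes called higher and lower were 27 and 5. Repeated quantile normalisation gave 3 lower (0 of them variants), among 5498 of all genes. Leaving out the lowest 25% of genes by mean gave 3 lower (2 clustered) and a variant median of 0.61. Leaving out the lowest 50% gave 17 higher and 2 lower, with 12 clustered higher, 2 clustered lower and 0 variants lower. The medians were then 1.17 for clustered and 0.88 for variant genes. Of the 9968 genes left, 3770 were higher and 3327 lower. The mean behind both filters includes the APT121 arrays, so a rise itself helps a gene to stay in. At least a 1.5-fold change left 14 clustered genes higher, 2 histone genes lower (2 clustered, 0 variants), and 2288 of all genes higher and 1264 lower. Counted over all histone transcript clusters, shared ones included, 59 rose and 4 fell, where 20.0% of all 28815 transcript clusters rose and 27.2% fell. The 59 hold 31 shared clusters, which are not independent, so they add no separate genes to the 27. Leaving out 1 array at a time gave 3 to 5 histone genes lower, 2 to 4 of them clustered (3 and 2 without APT121 array 1 or 3 or wild type array 1, 2 or 3), and 0.12 to 0.44 for Slbp minus Npat. Over all genes, leaving out 1 array at a time gave 4829 to 5984 lower. Without wild type arrays 5, 6 and 7, 2 variants were lower, among 5084 of all genes. The SAM-type statistic called 24 histone genes higher and 4 lower. With the replicate block, 26 histone genes were higher and 6 lower (2 of them variants), among 4027 and 4787 of all genes. The median of all genes was -0.09 as deposited, -0.15 after median centring and -0.06 after repeated quantile normalisation. Array signals close to the background limit what can be said of dim probe sets such as those of H2ac8, H3c7, H3f3a, H1f6 and H2bc1.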

Other observations

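Some clustered genes are neighbours that start back to back. The printed-length stretches before the starts of H2ac8 and H2bc8 overlap by 121 bases on opposite strands. The probe set of H2bc8 had 5.12, 5.08, 5.04 and 5.10 in APT121 arrays, against 4.34 to 4.77 (median 4.55) in wild type (difference 0.54 ± 0.08, limma adjusted p = 2.69e-05). That of H2ac8 differed by -0.08 ± 0.08, but its signal was dim, at percentile 4.97 of genes by mean. H2ac8 is also listed by the 2 shared H2A clusters, which rose by 0.63 to 0.66. Whether H2ac8 and H2bc8 differ was not tested, and the dim probe set cannot show it. The testis genes H2ac1 and H2bc1 also start back to back, with an overlap of 20 bases, and each rose by 0.33.

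By chromosome, 17 of the 23 clustered genes on chromosome 13 rose and 3 fell, as did 3 and 1 of the 4 on chromosome 3. Among all genes tested, 22.8% rose and 30.0% fell. On chromosome 11, 1 of 2 rose, and the H4 gene on chromosome 6, H4f16, rose with 7.38, 7.20, 7.28 and 6.68 in APT121 arrays, against 6.22 to 6.81 (median 6.49) in wild type (0.65 ± 0.12; limma, adjusted p = 0.000355).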
